A study of Mus musculus with 12 samples.

Results

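Expression of 10 genes for fibronectin, tenascins, thrombospondins and other matricellular proteins was compared between outer layers of the embryonic mouse heart. The genes were fibronectin (Fn1), tenascin-C (Tnc), tenascin-XB (Tnxb), 4 thrombospondins (Thbs1, Thbs2, Thbs3 and Thbs4), osteonectin (Sparc), periostin (Postn) and osteopontin (Spp1). They were chosen by name, with earlier results of these data known, and each had 1 row among the 17637 genes measured. Hearts came from wild-type CD1 mouse embryos, an outbred stock, at E16.5, a late stage of heart development. Artery samples held the mesothelium, a thin covering epithelium, with the layer beneath it, peeled off where the great arteries leave the heart. Ventricle samples held epicardium and subepicardium peeled off the ventricles. Tissue was pooled by litter, and litters 1 to 6 each gave 1 library of either kind, which makes 6 against 6. No individual embryo can be followed in such pools, and the peeled layers hold several cell types.

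Fibronectin is a large adhesive glycoprotein that cells pull into fibrils through integrins, and these fibrils serve as a scaffold for collagen and other matrix. Tenascins, thrombospondins, periostin, osteonectin and osteopontin are matricellular proteins, secreted molecules that bind matrix, growth factors and cell receptors and change how cells adhere rather than forming the main structure. Many of them are abundant in developing heart valves, vessel walls and tendon, and several reappear in injured heart tissue.

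Recovered read totals ran from 6.77 M to 18.99 M in artery libraries and from 16.45 M to 22.11 M in ventricle libraries. Sequencing lanes also differed: artery 1, artery 3, ventricle 3 and ventricle 6 were run in lane 1, artery 6 in lane 4 and the others in lane 2. Artery 1 and artery 6 were the shallow libraries, and artery 1 had no read for 2057 genes, against 495 to 795 genes in the other artery libraries and 581 to 747 genes in ventricle libraries. Mesothelial and epicardial markers were present in both groups, with a summed value of 1587 to 3220 in artery libraries and 2665 to 5067 in ventricle libraries over 9 genes, all 9 of which were lower in artery. The 6 smooth muscle markers summed to 1769 to 3656 in artery and 478 to 758 in ventricle, and all 6 were higher in artery. The 8 heart muscle markers summed to 3407 to 12776 in artery and 10821 to 28167 in ventricle, with 6 lower in artery. Red cell markers summed to 1737 to 9262 in artery and 918 to 1879 in ventricle, the highest in artery 6. The part of these markers in the results on single genes was not tested. Fewer cells of a type and less RNA per cell cannot be told apart in such samples.

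Tnc and Thbs3 were more than 2-fold higher in the artery layers, Postn and Sparc were higher by less, and Fn1, Tnxb, Thbs1, Thbs2 and Thbs4 did not pass the test. Of the 9 members tested, 4 were higher in artery and 0 lower (limma without the litter pairing, adjusted p under 0.05 over 14779 genes). Among all tested genes 12.2% were higher and 11.8% lower, 24.1% in all. Values did not overlap between the groups for 3 members (Tnc, Thbs3 and Sparc, artery above in each), against 11.9% of all tested genes, 7.61% with artery above and 4.25% with artery below. The median log2 difference was 0.35 over the 9 members and -0.04 over all tested genes. With the litter as a block, 2 members were called, Tnc and Thbs3, since Postn (adjusted p = 0.0521) and Sparc (adjusted p = 0.0535) moved to just above the threshold. Without the shallow libraries artery 1 and artery 6, 3 members were called, since Sparc was lost (0.33, adjusted p = 0.057). Spp1 was under the minimum mean value of 1 and was not tested. Values are the deposited normalized values, close to reads per M reads, and differences are of log2(value + 1), artery minus ventricle, which understates the change of low genes.

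**Figure D1:**
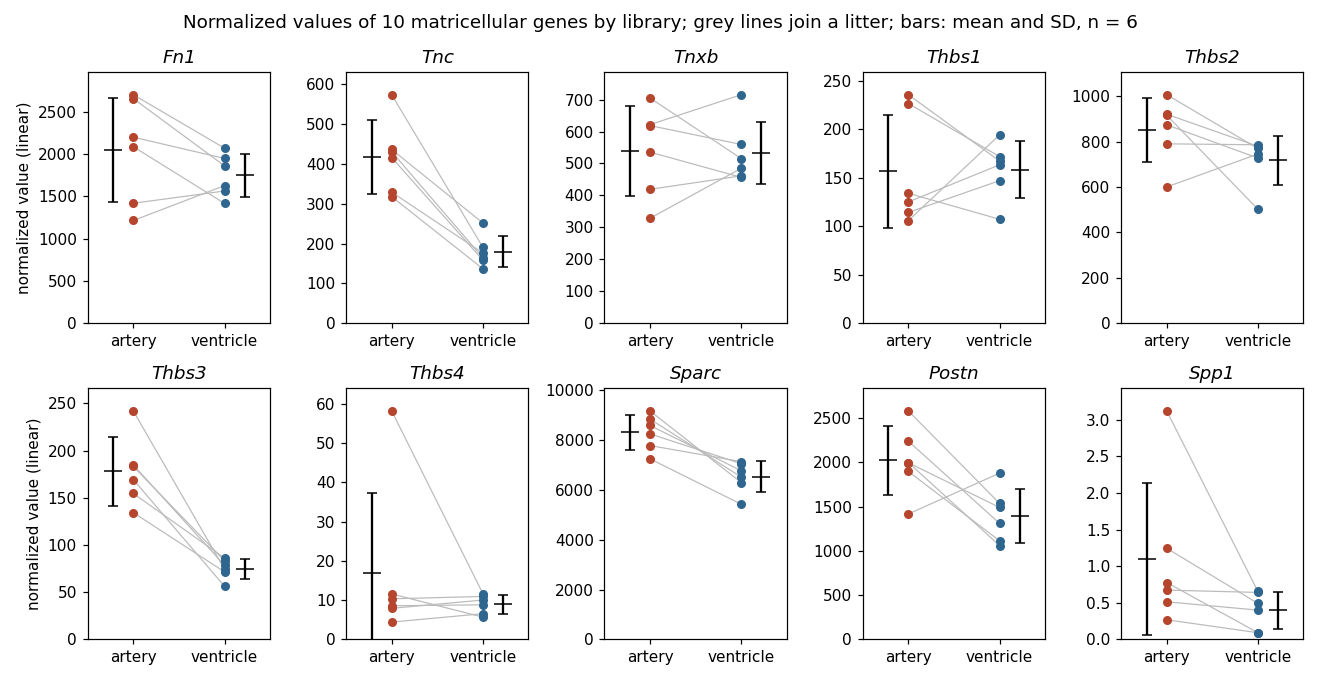
Normalized value (linear axis from 0) of each gene in 6 artery libraries, left, and 6 ventricle libraries, right, with grey lines joining libraries of a litter and black bars for mean and SD (the Thbs4 artery bar runs below the axis). Tnc, Thbs3 and Sparc had every artery library above every ventricle library, and a single artery library lay far above the others for Thbs4.

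A promoter window is shown for each of Tnc, Thbs3 and Postn, because each was called higher in the artery layers. Shared regulation was not tested. The window of Sparc, the other called member, and another window of Tnc overlap annotated exons and are not shown. That Tnc window had TATAAA 199 and GGGCGG 240 bases before its own start. A further upstream window of Postn is left out. The sequences are the 250 bases before the start in RefSeq (GRCm38.p6), read 5′ to 3′ on the gene's strand, and capitals mark matches to TATAAA (the TATA box) or GGGCGG (a binding sequence of Sp1) on either strand.
Tnc, chr4:64047016-64047265, minus strand: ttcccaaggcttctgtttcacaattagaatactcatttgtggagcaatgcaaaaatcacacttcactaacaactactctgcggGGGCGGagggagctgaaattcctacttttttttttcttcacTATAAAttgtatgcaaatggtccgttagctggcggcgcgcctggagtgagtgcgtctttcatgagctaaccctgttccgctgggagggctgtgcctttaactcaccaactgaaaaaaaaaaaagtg
Thbs3, chr3:89214930-89215179, plus strand: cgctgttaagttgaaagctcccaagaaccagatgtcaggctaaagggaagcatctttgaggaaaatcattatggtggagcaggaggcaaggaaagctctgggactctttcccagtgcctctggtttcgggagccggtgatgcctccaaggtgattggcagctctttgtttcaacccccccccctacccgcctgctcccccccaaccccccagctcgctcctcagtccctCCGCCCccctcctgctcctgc
Postn, chr3:54360857-54361106, plus strand: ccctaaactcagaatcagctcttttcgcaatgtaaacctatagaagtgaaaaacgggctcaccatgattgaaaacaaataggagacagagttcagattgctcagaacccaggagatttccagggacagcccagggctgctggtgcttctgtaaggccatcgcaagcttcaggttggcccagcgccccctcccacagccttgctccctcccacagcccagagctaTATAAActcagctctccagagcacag

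The 3 windows differed in these features. Postn had TATAAA ending 20 bases before its start, Tnc had it 120 bases before the start, and Thbs3 had no match. A GGGCGG match lay 161 bases before the Tnc start and, on the other strand, 15 bases before the Thbs3 start. Of 32851 RefSeq promoter windows of this length, 12.4% held TATAAA and 32.7% held GGGCGG. Neither TGANTCA (the AP-1 sequence, in 6.75% of windows), GGAATG (the TEAD sequence, in 12.6%) nor the CArG box of serum response factor (1.47%) was found in the 3 windows. GC content was 44.8% for Tnc, 58.8% for Thbs3 and 52% for Postn, with a median of 52.4% over all windows. Entries were matched for 8 of the 10 members.

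Fibronectin RNA was abundant in both layers and did not separate them. Fn1 (ENSMUSG00000026193, 1:71585520-71653200 in GRCm38, minus strand) had a lowest value of 1214, a median of 2142 and a highest value of 2701 in artery, against 1416, 1743 and 2069 in ventricle. Its artery libraries spread on both sides of the whole ventricle range. The means were 2046 ± 618 in artery, against 1747 ± 251 in ventricle (SD, n = 6 each). Its log2 difference was 0.18 ± 0.20 (SE, limma, adjusted p = 0.555), with a 95% interval of -0.25 to 0.60. Fn1 was higher in artery in litters 1 to 4, by 0.18 to 0.56, and lower in litters 5 and 6, by -0.42 and -0.14. With quantile normalization the Fn1 difference was -0.005.

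Among the tenascins, large multi-armed glycoproteins that often weaken cell adhesion, Tnc was higher in artery and Tnxb did not pass the test. Tnc (ENSMUSG00000028364, 4:63959785-64047015, minus strand), a tenascin of remodelling and embryonic matrix, had a lowest value of 318, a median of 423 and a highest value of 574 in artery, against 137, 170.1 and 252 in ventricle. Every artery library lay above every ventricle library. Means were 417 ± 92.5 in artery, against 180 ± 39.7 in ventricle (SD, n = 6). Their log2 difference was 1.21 ± 0.16 (SE, limma, adjusted p = 0.000126), a 2.31-fold ratio on that scale (95% interval 1.82 to 2.95). It was higher in artery in 6 of 6 litters, by 0.79 in litter 1 up to 1.58 in litter 3. The difference was 1.63 within lane 1 (adjusted p = 0.0594, 2 libraries a group) and 1.08 within lane 2. In the Tnc locus the annotation places a transcript on the other strand, 8030451A03Rik, whose mean was 1.39 in artery, against 0.754 in ventricle. The library kit is not stated to mark strand, so reads of overlapping genes on opposite strands are not separated.

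Tnxb (ENSMUSG00000033327, 17:34670535-34719815, plus strand) encodes a tenascin of mature connective tissue that binds collagen fibrils. Its lowest, median and highest values were 329, 577 and 705 in artery, against 457, 500.1 and 715 in ventricle. The ranges overlapped, and 3 of 6 litters were higher in artery. The log2 difference was -0.01 ± 0.18 (SE, limma, adjusted p = 0.969), with a 95% interval of -0.40 to 0.38. A further tenascin, tenascin-W (Tnn), was at 4.79 to 13.0 in artery and 0.0234 to 0.516 in ventricle, and is given with the related genes.

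Of the thrombospondins, Thbs3 alone passed the test, while Thbs1, Thbs2 and Thbs4 did not. Thrombospondin 1 and thrombospondin 2 form trimers that inhibit the growth of blood vessels, and thrombospondin 3 and thrombospondin 4 form pentamers like cartilage oligomeric matrix protein. Thbs3 (ENSMUSG00000028047, 3:89215180-89226837, plus strand) had a lowest value of 134, a median of 176 and a highest value of 242 in artery, against 56.3, 76.5 and 86.2 in ventricle. No artery library fell within the ventricle range. The log2 difference was 1.22 ± 0.14 (SE, limma, adjusted p = 2.43e-05), a 2.34-fold ratio (95% interval 1.90 to 2.87), and 6 of 6 litters were higher in artery, by 0.84 to 1.69. It was 1.52 within lane 1 and 1.16 within lane 2, and past the threshold in each. Mtx1, a mitochondrial import gene annotated on the other strand and overlapping Thbs3, was at 29.9 ± 3.59 in artery, against 28.4 ± 1.85 in ventricle (a log2 difference of 0.06 ± 0.09 with limma adjusted p = 0.65).

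Thbs2 (ENSMUSG00000023885, 17:14665500-14694235, minus strand) was the most abundant thrombospondin per length. It had a lowest value of 600.2, a median of 895 and a highest value of 1007 in artery, against 502, 757 and 786 in ventricle. It was higher in artery in 5 of 6 litters, and the ranges overlapped. The log2 difference of 0.24 ± 0.15 did not pass (SE, adjusted p = 0.257, limma), with a 95% interval of -0.07 to 0.56. Ventricle 2 held the lowest Thbs2 value of the 12 libraries, and the difference was 0.14 without that library.

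Thbs1 (ENSMUSG00000040152, 2:118111876-118127133, plus strand), which can activate latent TGF-beta, had a lowest value of 106, a median of 129.5 and a highest value of 236 in artery, against 107, 165 and 194 in ventricle. Artery 3 and artery 4 were at 236 and 227, and the other 4 artery libraries lay between 106 and 134. Its log2 difference was -0.07 ± 0.21 (SE, limma, adjusted p = 0.85), with a 95% interval of -0.52 to 0.39. Within litters it was higher in artery in litters 2, 3 and 4, by 0.32 to 0.49, and lower in litters 1, 5 and 6, by -0.36 to -0.87. The platelet and megakaryocyte markers, of cells known to carry thrombospondin 1, summed to 29.6 to 54.7 in artery and 29.4 to 41.9 in ventricle over 5 genes, with Ppbp and Gp9 under a mean of 1 over all libraries. The 8 immediate early genes summed to 319 to 390 in artery and 292 to 362 in ventricle. Their part in the Thbs1 values was not tested.

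Thbs4 (ENSMUSG00000021702, 13:92751590-92794818, minus strand), a thrombospondin of tendon, muscle and nerve, was low apart from a single library. It was at 58.2 (401 reads) in artery 1 and at 4.42 to 11.6 in the other 5 artery libraries, against 5.68 to 11.7 in ventricle. The log2 difference was 0.37 ± 0.44 (SE, limma, adjusted p = 0.578) over all libraries and -0.07 without artery 1. Heart muscle markers summed to 12776 in artery 1, the highest of the artery libraries (ventricle libraries 10821 to 28167), and correlated with Thbs4 at r = 0.68 over 12 libraries with group means subtracted. Cartilage and tendon markers summed to 109 in artery 1 (artery libraries 70.3 to 131), with r = 0.25. Schwann cell markers summed to 10.2 in artery 1, the lowest of the artery libraries (highest 30.9), with r = -0.65. Over all marker lists r with Thbs4 ran from -0.72 (immediate early) to 0.68. Their part in the Thbs4 value was not tested.

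Postn and Sparc were higher in artery by modest margins. Postn (ENSMUSG00000027750, 3:54361109-54391037, plus strand), a matricellular protein of fibroblasts and valves that promotes collagen crosslinking, had a lowest value of 1419, a median of 1998 and a highest value of 2582 in artery, against 1060.3, 1402 and 1879 in ventricle. Artery 1 was the lowest artery library, and litter 1 was the only litter with the artery value below the ventricle value. The log2 difference was 0.54 ± 0.17 (SE, limma, adjusted p = 0.0313), a 1.45-fold ratio (95% interval 1.13 to 1.86), higher in 5 of 6 litters. It was 0.58 within lane 1 and 0.52 within lane 2, and not past the threshold in either. The call was also lost with the litter as a block (adjusted p = 0.0521, limma) and with lane as a factor (adjusted p = 0.0508, limma). Without litter 1 the difference was 0.72 (adjusted p = 0.00303, limma), and in an alternative added after seeing the data, the litter block without litter 1, the adjusted p was 0.00197 (limma). The call was lost in 11 of 18 omissions, with differences of 0.46 to 0.56, namely without artery 2, artery 3, artery 5, ventricle 2, ventricle 4, ventricle 6 or any of litters 2 to 6.

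Sparc (ENSMUSG00000018593, 11:55394500-55423183, minus strand), a collagen-binding glycoprotein that takes part in collagen fibril assembly, was the most abundant member. It had a lowest value of 7243, a median of 8413 and a highest value of 9164 in artery, against 5422, 6639.6 and 7131 in ventricle. The groups were close but did not overlap, and all 6 litters were higher in artery, by 0.12 to 0.54. The log2 difference was 0.35 ± 0.11 (SE, limma, adjusted p = 0.0381), a 1.27-fold ratio (95% interval 1.08 to 1.51). Within lane 1 it was 0.43 and within lane 2 it was 0.29, and neither passed the test. Over all 12 libraries the Sparc call was also lost with lane as a factor (adjusted p = 0.0518, limma) and with the litter as a block (adjusted p = 0.0535, limma). The direction held in 18 of 18 omissions, but the call was lost in 12, with differences of 0.30 to 0.37, namely without artery 3, artery 5, ventricle 1, ventricle 2, ventricle 3, ventricle 5, ventricle 6 or any of litters 1, 2, 3, 5 and 6. Sparc alone took 0.812 ± 0.0779% of all artery reads, against 0.644 ± 0.0675% of ventricle reads (SD, n = 6). The 10 members together took 1.42 ± 0.121% of artery reads, against 1.12 ± 0.114% of ventricle reads.

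Spp1 (ENSMUSG00000029304, 5:104435118-104441050, plus strand), a phosphoprotein of bone and activated macrophages, was near the limit of detection. It had 4 to 21 reads in artery libraries and 1 to 11 reads in ventricle libraries, so that its values of 0.268 to 3.12 in artery and 0.0911 to 0.654 in ventricle rest on few molecules. With no filter on low values it had a log2 difference of 0.49 ± 0.24 (SE, limma, adjusted p = 0.177). The 7 macrophage markers were present in both groups, at a summed value of 293 to 415 in artery and 303 to 438 in ventricle.

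**Figure D2:**
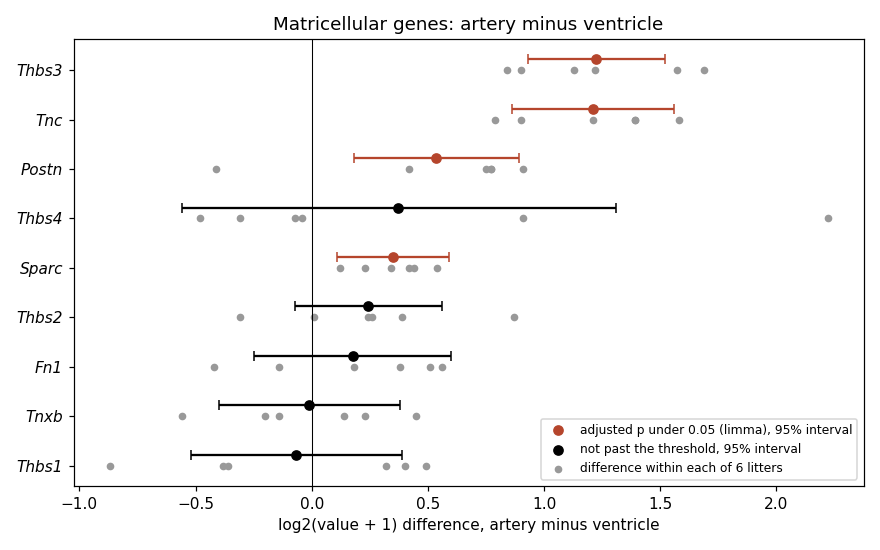
Difference of log2(value + 1), artery minus ventricle, for the 9 members tested, with 95% intervals (upper marks) and the differences within each of 6 litters (grey points). Tnc and Thbs3 lay near 1.2 with all litters above 0, and the litters of Sparc were also all above 0. The litters of Postn, Fn1, Tnxb, Thbs1, Thbs2 and Thbs4 fell on both sides of 0.

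Levels of different genes were compared per kb of exon (the union of annotated exons). This union takes in the exons of all annotated transcripts of a gene and can be longer than the RNA present. The order of genes at similar levels therefore depends on the annotation. In artery the order of means was Sparc at 2193 ± 187, Postn at 232 ± 44.3, Fn1 at 175 ± 52.9, Thbs2 at 122 ± 20.2, Tnc at 53.7 ± 11.9, Tnxb at 44.1 ± 11.6, Thbs3 at 36.9 ± 7.60, Thbs1 at 25.8 ± 9.61, Thbs4 at 5.12 ± 6.21 and Spp1 at 0.667 ± 0.632 (value per kb, SD, n = 6). Only Sparc from Postn and Thbs2 from Tnc were separated without overlap between neighbours in this order. In ventricle the order was Sparc at 1724 ± 166, Postn at 161 ± 34.9, Fn1 at 149 ± 21.5, Thbs2 at 103 ± 15.5, Tnxb at 43.6 ± 7.99, Thbs1 at 26.1 ± 4.84, Tnc at 23.1 ± 5.11, Thbs3 at 15.6 ± 2.21, Thbs4 at 2.72 ± 0.734 and Spp1 at 0.240 ± 0.154 (value per kb, SD, n = 6). Here Postn overlapped Fn1, Thbs1 overlapped Tnc, and Tnc overlapped Thbs3, while the other neighbours did not overlap. Tnc and Thbs3 thus stood above Thbs1 by their means in artery and below it in ventricle.

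**Figure D3:**
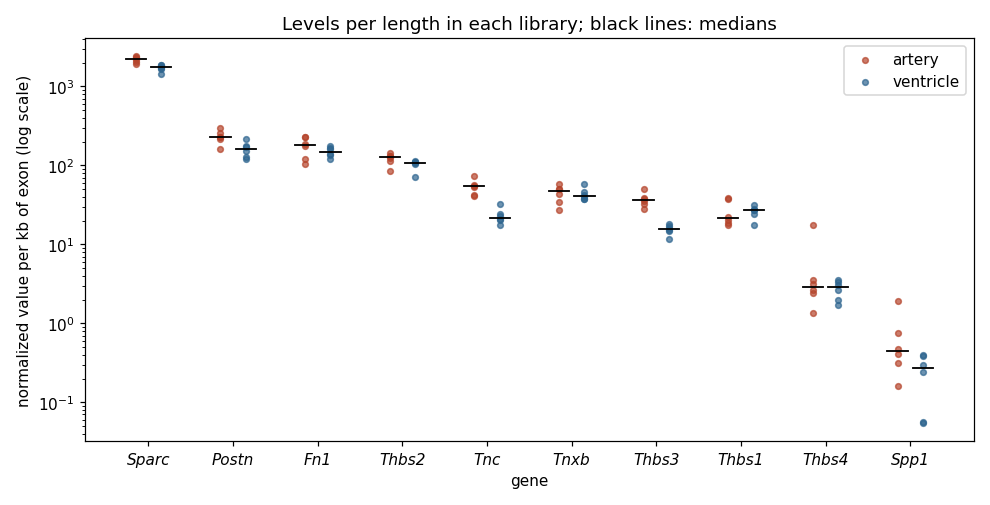
Normalized value per kb of exon on a log axis for each gene, with artery libraries left of ventricle libraries and black lines for medians. Sparc stood far above the other members in both groups, and Spp1 was the lowest.

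Other matricellular genes, several of the same protein families, were mostly higher in artery where they could be tested. Their list, like those of receptors and proteases below, was chosen with earlier results of these data known. The list held 21 genes, of which 17 were in the table and 14 tested, with Spock1, Ibsp and Vtn under the minimum. Of the 14, 10 were higher in artery, 0 lower and 4 not past the test, with a median log2 difference of 1.14 beside -0.04 over all tested genes, of which 12.2% were higher. Within lane 1, with 2 libraries a group, 6 were called higher, and within lane 2, 9. Smoc1, a SPARC relative that modulates BMP signalling, was at 79.7 ± 21.1 in artery, against 1.58 ± 0.649 in ventricle (a log2 difference of 4.96 ± 0.20 with limma adjusted p = 3.45e-09). Nov, a CCN-family matricellular protein, was at 203 to 293 in artery, against 29.5 to 56.6 in ventricle, with a log2 difference of 2.61 ± 0.15 (SE). Tnn, which is mostly known from developing bone and tendon, was at 7.12 ± 3.02 in artery, against 0.177 ± 0.190 in ventricle, a log2 difference of 2.73 ± 0.21 (SE). Artery libraries had 34 to 208 Tnn reads and ventricle libraries 0 to 8.

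The CCN genes, matricellular proteins that respond to growth factors and mechanical load, were higher in artery for all 5 measured, and apart from Nov are named here after their values were seen. Besides Nov, Ctgf was higher by a log2 difference of 1.88 ± 0.20, Cyr61 by 1.03 ± 0.14, Wisp1 by 1.21 ± 0.16 and Wisp2 by 2.55 ± 0.28 (SE). The groups did not overlap for any of these genes, which held with artery above for 7.61% of all tested genes. The other genes with values here were likewise picked after these were seen. Fstl1, a secreted SPARC relative, was at 3638 ± 541 in artery, against 1182 ± 149 in ventricle (SD, n = 6 each, log2 difference 1.62 ± 0.13). Tgfbi, the closest relative of Postn, was higher by 0.81 ± 0.16, and Comp, the fifth thrombospondin, by 1.06 ± 0.23, with overlapping groups. The 6 cartilage and tendon markers, which include Comp, summed to 70.3 to 131 in artery and 30.6 to 48.5 in ventricle, and 3 were higher in artery. Sparcl1 (-0.44 ± 0.18, adjusted p = 0.0873, limma), Smoc2, Spock2 and Spock3 did not pass.

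Receptors that bind these proteins were mixed. Of 18 tested receptor genes, 6 were higher in artery, 1 lower and 11 not past the test. Their median log2 difference was 0.14, beside -0.04 over all tested genes, of which 12.2% were higher and 11.8% lower. Within lane 1, with 2 libraries a group, 1 receptor was called higher and 0 lower, and within lane 2 it was 5 higher and 0 lower. Itga9, an integrin subunit that binds tenascin-C and osteopontin, was at 189 ± 42.7 in artery, against 77.6 ± 13.0 in ventricle (log2 difference 1.26 ± 0.15, SE). Sdc1, a heparan sulfate proteoglycan that binds fibronectin and tenascin-C, was at 125 ± 18.3 in artery, against 58.3 ± 6.92 in ventricle (1.08 ± 0.11), and the integrin subunit Itga8 was at 178 ± 36.5 in artery, against 94.2 ± 14.2 in ventricle (0.89 ± 0.14). The receptor that was lower was Cd36, which binds thrombospondins and takes up fatty acids, at 117 ± 54.6 in artery, against 238 ± 47.7 in ventricle (-1.15 ± 0.29, adjusted p = 0.0112, limma, lower in 6 of 6 litters). Its call was lost without litter 3 (-1.08, adjusted p = 0.0522, limma) and within either lane. Among the 11 receptors that did not pass, differences ran from -0.53 (Itgb8) to 0.33 (Cd44). The main fibronectin receptor subunit Itga5 (0.07 ± 0.15) and the thrombospondin receptor Cd47 (-0.08 ± 0.15), both picked after their values were seen, were among these.

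Matrix proteases known to act on such proteins were higher in artery for 6 of 10 tested genes and lower for 1. Their median log2 difference was 0.69, beside -0.04 over all tested genes, of which 12.2% were higher and 11.8% lower. Adamts1, which can cleave thrombospondins, was at 317 ± 79.9 in artery, against 73.0 ± 8.44 in ventricle (log2 difference 2.07 ± 0.15, SE). Htra1 was at 199 ± 37.3 in artery, against 77.7 ± 11.3 in ventricle (1.33 ± 0.13), and the gelatinase Mmp2 at 676 ± 131 in artery, against 337 ± 45.5 in ventricle (0.99 ± 0.14). Mmp9, a gelatinase of white blood cells, was lower (-1.09 ± 0.25) on 0 to 26 reads in artery and 20 to 73 reads in ventricle, with overlapping values, and its call was lost within either lane. Smooth muscle and mesothelial markers moved with the groups, as given above, and the fibroblast markers summed to 39426 to 64666 in artery and 37732 to 54445 in ventricle, with 2 of 7 higher in artery. Their part in these differences was not tested.

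**Figure D4:**
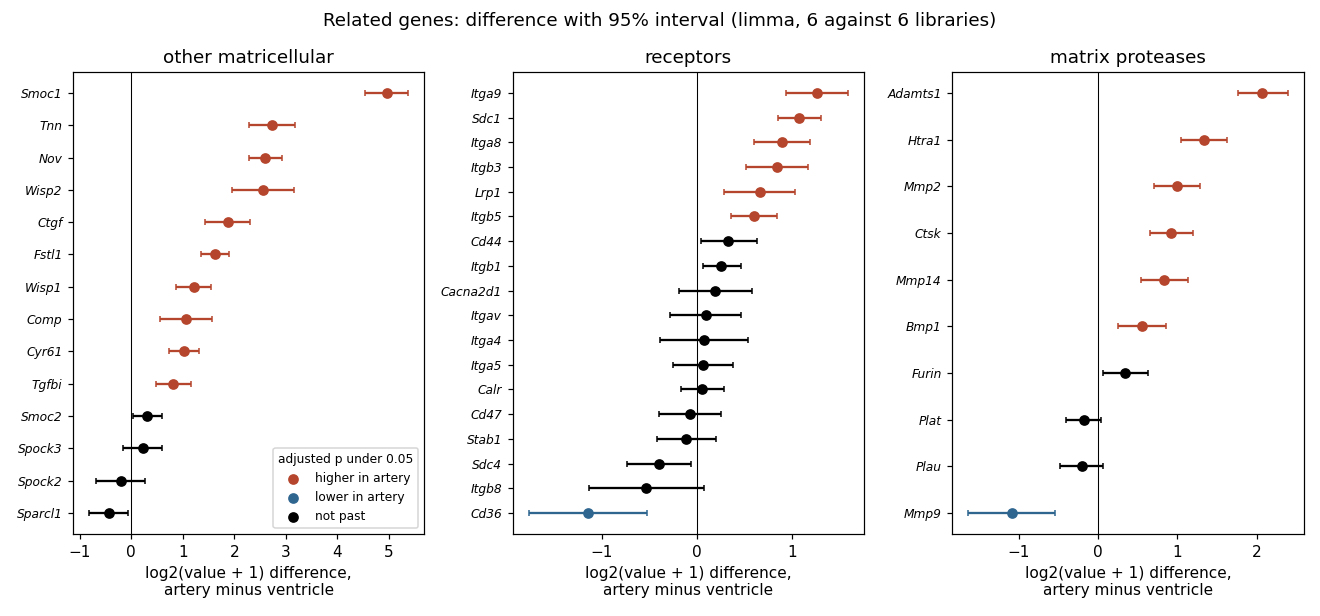
Difference of log2(value + 1), artery minus ventricle, with 95% intervals for tested genes of the 3 related lists. Among other matricellular genes 10 of 14 were called higher and none lower (limma), and 11 of 18 receptors did not pass the test. Of all tested genes 12.2% were called higher and 11.8% lower.

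Within the groups the members did not vary alike. After the group means were subtracted, Fn1 varied with Tnxb (Pearson r = 0.84, Spearman rho = 0.86) and with Thbs1 (r = 0.81, rho = 0.79) over 12 libraries, and hardly with Sparc (r = 0.14) or Postn (r = 0.13). Tnc varied with Tnxb (r = 0.78, rho = 0.80), and Fn1 with Tnc at r = 0.69 (rho = 0.64). Thbs2 varied with Thbs3 (r = 0.82, rho = 0.70). Without the 2 libraries farthest from the median of the first gene, r was 0.79 for Fn1 with Tnxb, 0.76 for Fn1 with Thbs1 and 0.49 for Thbs2 with Thbs3. Under the same omission r was 0.73 for Tnc with Tnxb and 0.53 for Fn1 with Tnc. These are descriptions without a test, since libraries share litters, lanes and depth. The correlation of Thbs4 with Spp1 (r = 0.71) rested on artery 1 and was 0.15 without it.

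Artery 5 and artery 6 were low in Fn1 by -0.69 and -0.47, in Tnxb by -0.31 and -0.66 and in Thbs1 by -0.49 and -0.38 against the artery mean on the log2 scale. Artery 3 and artery 4 were high in the same genes. Tnc was also low in artery 5 and artery 6, by -0.31 and -0.36, and was at 0.49 in artery 3 and 0.02 in artery 4. Sparc stayed within -0.19 to 0.15 of the artery mean in all 6 artery libraries. Fibroblast markers were also lowest in artery 5 and artery 6, with sums of 42207 and 39426, and highest in artery 3 and artery 4, with 64666 and 60572. Macrophage markers had the same libraries at the ends, with 299.6 and 293 in artery 5 and artery 6, and 372 and 415 in artery 3 and artery 4. The fibroblast sum was mostly collagen RNA. Artery means were 18664 for Col1a1, 12597 for Col1a2 and 16150 for Col3a1, against 269 (Pdgfra) to 1737 (Dcn) for the other fibroblast markers. Over 12 libraries with group means subtracted, Fn1 had r of 0.88 with the fibroblast sum, 0.78 with macrophage, 0.71 with endothelium and -0.75 with neuron markers. Thbs1 had r of 0.88 with macrophage and 0.77 with fibroblast markers, and Tnxb had 0.72 and 0.73 with the same sums. The genes of greatest exon length (1468 genes of at least 9766 bases, which take in Fn1 and Tnxb) had a median deviation of -0.124, 0.181, 0.058, 0.236, -0.083 and -0.179 in artery 1 to artery 6. Long genes were thus high in artery 3 and artery 4 and low in artery 5 and artery 6, the same directions as Fn1 and Tnxb. Artery 1 was low in long genes, with deviations of 0.17 in Fn1 and 0.25 in Tnxb. Artery 2 was high in long genes, with 0.09 in Fn1 and 0.04 in Tnxb. The part of these values in the pattern was not tested. With the length trend of each library removed, an alternative added after seeing the data, the artery minus ventricle differences were 0.22 for Fn1, 0.03 for Tnxb and -0.05 for Thbs1, and none passed the test (limma).

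**Figure D5:**
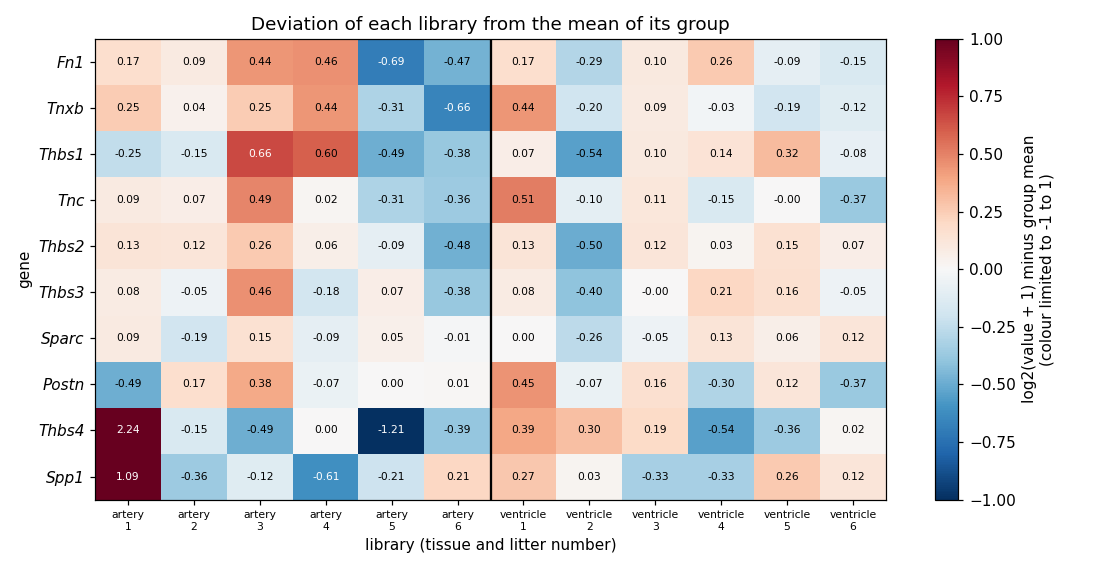
Deviation of log2(value + 1) in each library from its group mean, red for higher and blue for lower, with artery libraries left of the line. Fn1, Tnxb, Thbs1 and Tnc were low together in artery 5 and artery 6, and Thbs4 (2.24) and Spp1 (1.09) were high in artery 1.

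The genes most like each member in this within-group variation are given by Pearson r over 12 libraries, as a description of genes picked for high r among at least 11378. For Fn1 they were the non-muscle myosin Myh9 (0.977), the cytoskeletal scaffold Iqgap1 (0.972) and Traf3 (0.967). Tnc was followed most closely by Frmd6 (0.941), Fam129a (0.907) and the mural cell receptor Notch3 (0.902). For Tnxb the nearest were Zmat3 (0.974), Atg2b (0.955) and Ccnyl1 (0.942). Thbs1 had Fkbp9 (0.946), Men1 (0.941) and the latent TGF-beta anchor Lrrc32 (0.940). Thbs2 had the collagen chain Col6a6 (0.961), the receptor kinase Axl (0.934) and the collagen receptor Mrc2 (0.927). Thbs3 had the Hedgehog pathway gene Evc (0.961), the collagen prolyl hydroxylase Leprel2 (0.957) and Ankrd27 (0.936). Sparc had the secretory pathway genes Rcn3 (0.932) and Sar1a (0.927), and Tmbim1 (0.920). Postn had the chondroitin synthase Chsy1 (0.952), the endothelin receptor Ednrb (0.946) and Abca8a (0.944). For Thbs4 they were Smpd1 (0.969), Ddx24 (0.961) and Wdr96 (0.956), and for Spp1 they were Dolpp1 (0.943), Sln (0.941) and Ctsh (0.938), and these r lay between 0.858 and 0.910 without artery 1. Spearman rho was lower than r for Col6a6 (0.762) and Axl (0.650). Without the 2 libraries farthest from the member's median, r was 0.751 for Col6a6 and 0.777 for Axl, and over all 30 genes it ran from 0.713 (Wdr96) to 0.957 (Zmat3).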

How the data were processed

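Poly(A) RNA of 12 pooled samples (RNeasy Micro, NEBNext Ultra) was sequenced as single reads on an Illumina sequencer, per the labels' protocols. CASAVA 1.8.2, cutadapt 1.3 and RSEM 1.2.3 with build GRCm38 are named in the submitters' processing notes. How the table was normalized is not given in the sources used here. Values deposited by the authors are a normalized signal per gene, and 100% of 211644 values came out as whole reads, within 0.02 reads, once an offset and each library's scale were removed. Recovered totals averaged 14.2 ± 5.37 M reads in artery libraries, against 18.4 ± 2.12 M reads in ventricle libraries (SD, n = 6).

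The 14779 genes whose mean value reached 1 (2858 lay below) were tested on log2(value + 1) with limma 3.58.1 in R 4.3.3 (trended, robust), two-sided, with Benjamini-Hochberg adjustment and a threshold of 0.05. Intervals are at 95%. Alternatives used edgeR 4.0.16 and DESeq2 1.42.0 on the recovered reads, other scalings, filters and pseudocounts, lanes, a litter block and omitted libraries. Litter numbers come from the labels and pair the samples. The main test did not use this pairing, and the litter block did. Deviations of same-litter libraries correlated at 0.2153 on average (-0.0137 to 0.3956). No same-group pair of libraries matched within sampling noise. Coordinates and exon lengths are from GENCODE M21, which matched 17468 of 17637 IDs, and promoters from RefSeq. By rule the text names all members, up to 3 genes per direction with the smallest p from each related list, and for each member the 3 genes most correlated with it after group means were subtracted. Other genes, named with values or as not past the test, were chosen after their values were seen. Members and lists were chosen with earlier results of these data known. On simulated data, limma recovered 24% of 1.5-fold changes, 88% of 2-fold changes and 100% of 4-fold and 8-fold changes (50 genes each). It made 5 false calls. The simulation used the same spread setting for all genes and no litter or lane effects, so these shares may not hold for the real libraries.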

Additional observations from a re-analysis of the deposited data

Results flagged for a closer look

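In 3 of 20 sets of 6 libraries (10 genes in each group), a single library stood apart by Dixon's criterion, which chance alone meets in about 1 of 20. Thbs4 in artery 1 was at 58.2, with the nearest artery library at 11.6. Spp1 in artery 1 was at 3.12, resting on 21 reads, with the nearest artery library at 1.24. Thbs2 in ventricle 2 was at 502 on 9415 reads, with the nearest ventricle library at 727. Artery 1 was also the shallowest library. No explanation for these values was tested.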

How the results depend on the processing

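Tnc and Thbs3 kept their direction in all 38 alternatives, at 1.08 to 1.63 and 1.16 to 1.52 over 20 settings, and at 1.11 to 1.31 and 1.13 to 1.3 over 18 omissions of a library or litter, and only Tnc within lane 1 (1.63) lost its call. The cause of the changes below was not tested. With the litter block 2 members were called higher, 2 receptors lower and 3619 genes in all, and the block changed the calls of no member but Postn and Sparc. With lane as a factor 2 members were called, Tnc and Thbs3. Within lane 1 it was 1, and within lane 2 it was 2, where fewer samples were fitted. All genes called were 320 within lane 1 and 1362 within lane 2, and 2069 to 4291 under the omissions, the lowest without litter 3, beside 3430 by edgeR and 4170 by DESeq2 on the recovered reads. Other matricellular genes called higher were 6 within lane 1, with 1 lower by DESeq2. Receptors called higher were 1 within lane 1, and those lower were 0 within each lane and 2 without artery 1 and artery 4. Proteases called lower were 0 within each lane and at a mean of at least 5. Under omissions 2 to 4 members were called higher, 10 to 11 other matricellular genes higher and 0 to 1 lower, 5 to 8 receptors higher and 0 to 2 lower, and 5 to 7 proteases higher and 1 lower. Fn1 reversed at -0.005 with quantile normalization. Tnxb reversed at 0.11 with lane as a factor, 0.25 and 0.03 within lane 1 and lane 2, 0.03 by edgeR, 0.02 by DESeq2, 0.09 without artery 1 and artery 6, and 0.03 in the litter block without litter 1 and with the length trend removed, both added after seeing the data. Thbs1 reversed at 0.001 with lane as a factor and by edgeR, 0.13 within lane 1 and 0.09 without artery 1 and artery 6. Thbs4 reversed at -0.03 within lane 2, -0.19 without artery 1 and artery 4 and -0.09 without artery 1 and artery 6. Omissions gave -0.11 to 0.12 for Tnxb, -0.20 to 0.09 for Thbs1 and -0.07 to 0.62 for Thbs4. Quantile normalization also lost the Postn call (0.39), and plain CPM that of Sparc (0.34). Spp1 rests on 1 to 21 reads a library.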
